A study of Mus musculus with 8 samples.

Results

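Mouse embryonic stem cells (ESCs) depleted of either of 2 subunits of ATAC, the Ada-two-A-containing complex of transcriptional coactivators, were treated as 1 group here and set against control ESCs. All 8 total RNA libraries of the series entered: 6 auxin libraries, of which 3 were labelled Zzz3_auxin and 3 Yeats2_auxin, and 2 libraries labelled Control. According to the study, ZZZ3 or YEATS2 carried a degron (AID), which the F-box protein Tir1 targets for destruction once auxin is present. Per the labels, auxin was given at 500 µM for 24 h, and all groups were ESCs grown in serum with leukaemia inhibitory factor, both inhibitors of the 2i medium and G418 to keep Tir1. The labels give neither the line of the control cells nor their treatment, and do not say whether both controls are of 1 line. The study's supplement describes its rates for both proteins as coming from AID cells given dimethyl sulfoxide (DMSO) or auxin, without assigning the control libraries to a line, so the depletion cannot be told apart from exposure to auxin or from a difference of line. Nothing in the labels says that the replicates came from separate cultures or from more than 1 clone, and the P values measure only the spread between these libraries.

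ATAC is a histone acetyltransferase complex built around GCN5 or PCAF, enzymes that it shares with the SAGA complex. ZZZ3 and YEATS2 belong to ATAC and not to SAGA, and both bind histone tails. In ESCs and other cells, ATAC is found at promoters and at some enhancers, among them those of ribosomal protein genes. A response common to the loss of both subunits is therefore of interest, and joining the libraries shows it with more samples than either depletion has alone.

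The number of reads assigned to genes ran from 14315120 in Zzz3_auxin replicate 3 to 27884704. No library was a duplicate of another of its group, with 3.55 to 47.9 of chi-square per gene between their raw counts. The 8 ESC markers *Pou5f1*, *Sox2*, *Nanog*, *Klf2*, *Klf4*, *Esrrb*, *Tfcp2l1* and *Zfp42* had between 54.1 and 2545 CPM in every library (reads of a gene relative to all reads assigned in that library). None was called by edgeR in the pooled comparison, and their median log2 fold change (FC) was -0.04. DESeq2 called *Pou5f1* (adjusted P 0.0233), which had 275 and 420 CPM in the controls and 460 to 592 CPM in the auxin libraries, with a log2 FC of 0.59 and an edgeR adjusted P of 0.0879. *Zzz3* mRNA had 186 and 182 CPM in the controls, 77.5 to 112 in Zzz3_auxin and 183 to 191 in Yeats2_auxin. *Yeats2* mRNA had 90.9 and 95.8 CPM in the controls, 119 to 133 in Zzz3_auxin and 43.7 to 103 in Yeats2_auxin. The degron acts on protein, so these mRNA levels do not measure the depletion.

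Pooling revealed a modest response in both directions. Of 17532 genes tested by edgeR's quasi-likelihood test, 309 (1.76%) were called at a Benjamini-Hochberg adjusted P under 0.05, 169 higher (0.964%) and 140 lower (0.799%) in the auxin libraries, and 3524 had an unadjusted P under 0.05. With a log2 FC beyond 1 in either direction as well, 95 (0.542%) were differentially expressed genes (DEGs), 67 up-regulated and 28 down-regulated. In all 309 the 6 auxin libraries lay entirely above or entirely below both controls, as they did in 4155 of all genes tested (23.7%). Genes with strong changes in both depletions led the list. *Smtnl1*, which encodes a smoothelin-like muscle protein, rose from 3.01 and 2.58 CPM in the controls to 7.96, 10.7 and 14.9 CPM as the lowest, median and highest auxin library, which gave a log2 FC of 1.99 ± 0.26 (SE, adjusted P by edgeR 0.0066). *Ccne2*, encoding the G1/S cyclin E2, fell from 59.8 and 56.6 CPM to 21.3, 25.1 and 29.1 CPM, which gave a log2 FC of -1.23 ± 0.12 (SE, adjusted P by edgeR 0.00238).

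Most of the pooled calls were missed when each depletion was compared with the same controls in 1 fit of all 8 libraries. In fits with only the libraries of 1 depletion and the controls, 45 of the 309 were missed. Those fits gave 0 calls in Zzz3_auxin and 501 in Yeats2_auxin. The mean of both depletions left 80 missed of 221 pooled calls, and a correction for GC content and gene length 76 of 241. The share missed thus depends on the fit. Below, calls in a depletion alone are those of the fit of all 8 libraries, unless stated otherwise. Zzz3_auxin alone gave 132 calls (0.753% of the genes tested) and Yeats2_auxin alone 78 (0.445%). Of the 309 pooled calls, 57 were also called in both single comparisons, 53 in Zzz3_auxin alone, 15 in Yeats2_auxin alone and 184 in neither. These 184 genes, 1.05% of all genes tested and 59.55% of the pooled calls, were 88 higher and 96 lower ones, and 37 of them were DEGs, 26 up-regulated and 11 down-regulated. All were close to the threshold in each depletion: their unadjusted P was under 0.05 in both for 184 of 184, their edgeR adjusted P ran from 0.0505 to 0.104 in Zzz3_auxin and from 0.0513 to 0.163 in Yeats2_auxin, and pooling brought it to between 0.0155 and 0.0497.

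**Figure D1:**
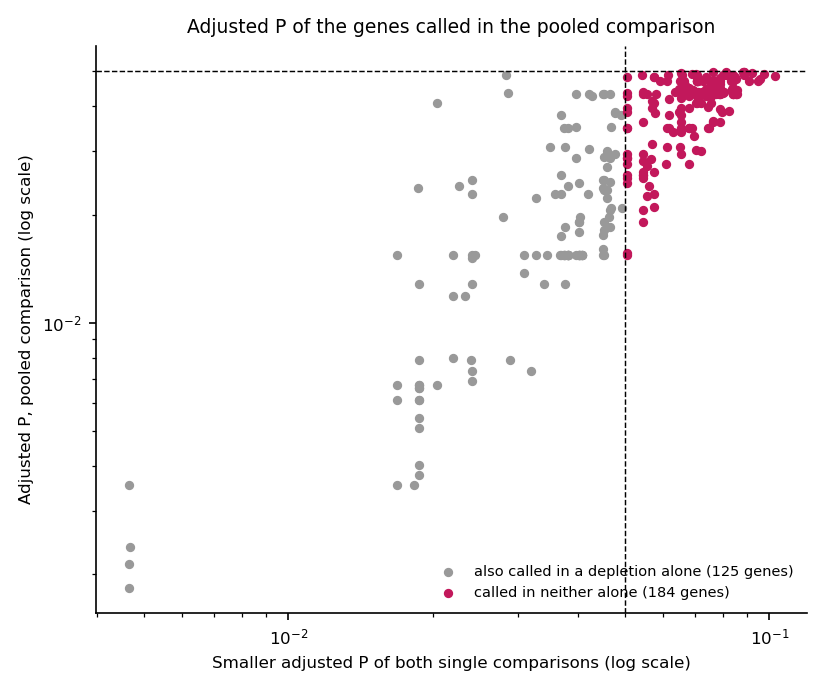
Each point is 1 of the 309 genes called in the pooled comparison, with the smaller adjusted P of both single comparisons on the x axis and the pooled adjusted P on the y axis, both logarithmic, and dashed lines at 0.05. The 184 genes called in neither depletion alone lie just right of the vertical line, between 0.05 and 0.11, and the 125 others to its left.

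Their fold changes were of similar size in all 3 comparisons, and the errors were smallest with the libraries pooled. Over the 184 genes the median size of the log2 FC was 0.63 pooled, 0.66 in Zzz3_auxin and 0.64 in Yeats2_auxin, while its median SE was 0.133, 0.152 and 0.151. The 184 genes were chosen by these same comparisons, so this pattern follows largely from the choice. All 309 pooled calls had the same sign in both depletions, which share their controls. In each of these genes all auxin libraries lay on one side of both controls, which fixes the sign. Tested directly, Yeats2_auxin against Zzz3_auxin gave 0 calls by edgeR (0%), with 1095 genes at an unadjusted P under 0.05, and 117 calls without a filter on low counts. None of the 184 genes had an unadjusted P under 0.05 in that comparison, the smallest being 0.134. A gene that differed between the depletions would have had a larger pooled error, so the choice of the genes bears on this count. Among the 125 other pooled calls, 6 had an unadjusted P under 0.05 there.

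The median of the 88 higher genes lay between 0.71 and 0.81 above the control mean in the 6 auxin libraries on the log2 CPM scale, and at -0.09 and 0.09 in Control replicates 1 and 2. That of the 96 lower genes lay between -0.69 and -0.48, with the controls at 0.05 and -0.05. Zzz3_auxin replicate 1 held the most extreme auxin value for 68 of the 184 genes. These medians are descriptions, as the genes were chosen on the same libraries.

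The calls rested on both controls. Without Control replicate 1 the pooled comparison gave 0 calls by edgeR, and 1268 genes had an unadjusted P under 0.05. Without Control replicate 2 these numbers were 2 and 3481. Each such fit takes the spread from the auxin libraries alone and assumes that the lone control varies like them. The 184 genes were chosen on these same libraries, so such fits are no independent check of them. Without an auxin library there were 73 calls (Zzz3_auxin replicate 2) to 692 (Zzz3_auxin replicate 3). All 184 genes kept their sign there, as was fixed by their auxin libraries all lying on one side of both controls. Without Zzz3_auxin replicate 3, the shallowest library, all 184 were called. Without Yeats2_auxin replicates 1, 2 and 3, 5, 37 and 3 of them were called. DESeq2 called 1134 genes, among them 182 of the 184.

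**Figure D2:**
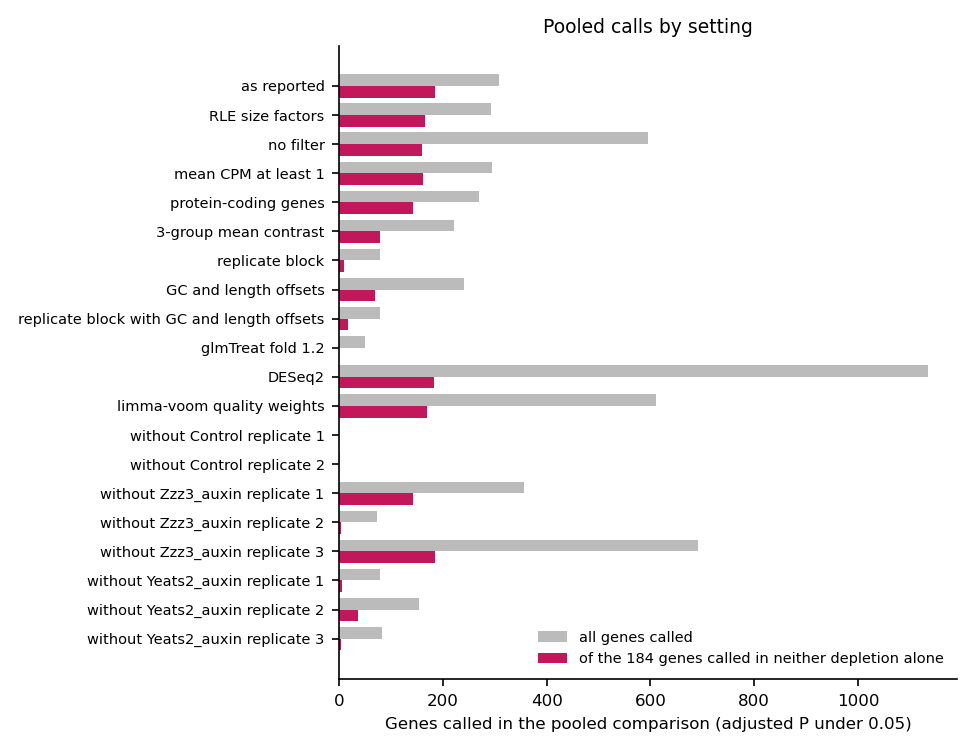
Bars give the number of genes called in the pooled comparison at an adjusted P under 0.05, on an axis starting at 0, under each setting tried. Grey bars count all genes and red bars those of the 184 genes called in neither depletion alone, from 0 without either control or in a test against a fold of 1.2 to 184 without Zzz3_auxin replicate 3.

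Base composition moved with the groups. GC-rich genes (above 53.9% GC) were set against GC-poor genes (below 44.3%) as the difference of their median log2 levels relative to the mean of all libraries. It was -0.59 and -0.08 in Control replicates 1 and 2 and between -0.03 and 0.43 in the auxin libraries. Median transcript GC was 53.7% for the 88 higher genes, 43.3% for the 96 lower genes and 49.1% for all genes tested with a value. After correction of every library for its trends with GC content and gene length, 241 genes were called in the pooled comparison, and 69 of the 184 remained called, 39 higher and 30 lower. All 184 kept their sign, with a median log2 FC of 0.64 instead of 0.74 for the higher and -0.44 instead of -0.56 for the lower genes.

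Among the 184 genes, 159 could be named by rule, having a symbol, a mean level of 2 CPM or more, groups that did not overlap and no pseudogene annotation, 74 higher and 85 lower. The 12 largest rises among them belonged to weakly expressed genes of varied function. *Ube2l6*, encoding an E2 enzyme for the interferon-induced modifier ISG15, had 1.28 and 1.09 CPM in the controls and 2.01, 3.46 and 4.91 CPM as the lowest, median and highest auxin library, which gave a log2 FC of 1.57 ± 0.36 (SE, adjusted P by edgeR 0.0487). *Plcd4*, a phosphoinositide-specific phospholipase C gene, had 1.28 and 1.18 CPM in the controls and 2.51, 3.58 and 4.41 CPM in the auxin libraries, which gave a log2 FC of 1.5 ± 0.29 (SE, adjusted P by edgeR 0.0287). In neither gene did the libraries overlap, as the rule for naming required. *Rhox5*, an X-linked homeobox gene of the reproductive tract, rose from 0.987 and 1.31 CPM to 2.14, 3.09 and 3.56 CPM, with log2 FCs of 1.38 pooled, 1.31 in Zzz3_auxin (edgeR adjusted P 0.0576) and 1.45 in Yeats2_auxin (0.0588).

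*Azin2* and *Ddit4l* were the more abundant of the 12. *Azin2* encodes an antizyme inhibitor that favours polyamine synthesis, and it had 4.59 and 6.76 CPM in the controls and 10.8, 11.4 and 16.1 CPM in the auxin libraries, which gave a log2 FC of 1.15 ± 0.23 (SE, adjusted P by edgeR 0.0349). *Ddit4l* encodes an inhibitor of the growth kinase mTORC1, and it had 18.8 and 14.1 CPM in the controls and 25, 34.4 and 42.1 CPM in the auxin libraries, which gave a log2 FC of 1.05 ± 0.21 (SE, adjusted P by edgeR 0.0339). Both were among the genes that stayed called after the GC and length correction, as were *Plcd4*, *Rhox5*, *8030474K03Rik* and *Gm12666*. The rises of *Ube2l6*, *Nipal4*, *Plekha6*, *Orai2*, *Fcgrt* and *Hr* were not called after it. *Hr*, a corepressor of hair follicle cells, moved most, from a log2 FC of 1.02 to 0.65 (edgeR adjusted P 0.272). The 12 lay between a log2 FC of 1.02 and 1.57.

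**Figure D3:**
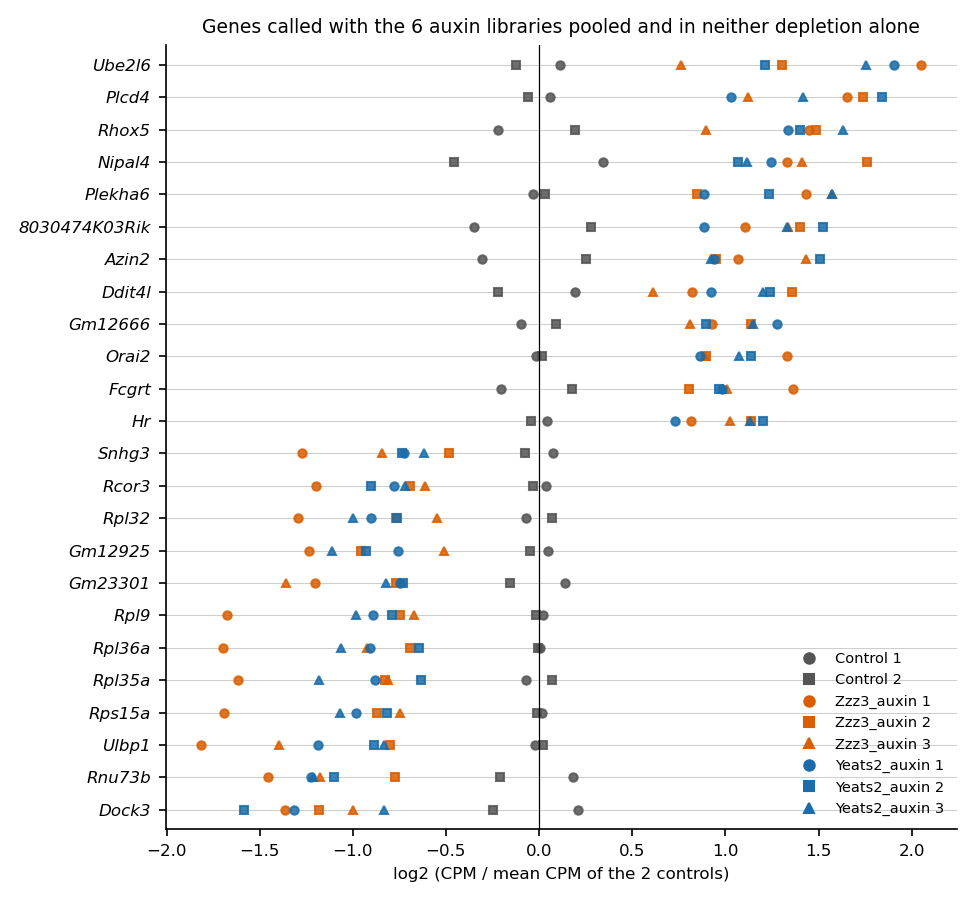
Each row is 1 of the 24 named genes called with all auxin libraries pooled and in neither depletion alone, and each point is 1 library. The x axis is log2 of its CPM over the mean CPM of the 2 controls. The 6 auxin libraries lie on one side of both controls in every row, as the rule for naming required.

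The largest falls included genes for ribosomal proteins and small nucleolar RNAs. *Dock3*, which encodes an activator of the GTPase Rac found mainly in neurons, had 7.89 and 5.76 CPM in the controls and 2.28, 2.88 and 3.84 CPM in the auxin libraries, which gave a log2 FC of -1.20 ± 0.21 (SE, adjusted P by edgeR 0.0228). *Ulbp1*, encoding a ligand of the NKG2D receptor of natural killer cells, had 10.8 and 11.1 CPM in the controls and 3.11, 5.35 and 6.27 CPM in the auxin libraries, which gave a log2 FC of -1.10 ± 0.23 (SE, adjusted P by edgeR 0.0426). *Rcor3*, a gene of the CoREST corepressor family, had 11 and 10.5 CPM in the controls and 4.68, 6.40 and 7.03 CPM in the auxin libraries, which gave a log2 FC of -0.81 ± 0.17 (SE, adjusted P by edgeR 0.0426). *Dock3* remained called after the GC and length correction, while *Ulbp1* and *Rcor3* did not (edgeR adjusted P 0.0652 and 0.0837).

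*Snhg3*, a noncoding host gene of small nucleolar RNAs, had 138 and 124 CPM in the controls and 54.3, 79.0 and 93.8 CPM in the auxin libraries, which gave a log2 FC of -0.76 ± 0.16 (SE, adjusted P by edgeR 0.0407). The small nucleolar RNA genes *Rnu73b* and *Gm23301* had log2 FCs of -1.14 and -0.91. None of these 3 was called after the GC and length correction, with edgeR adjusted P values of 0.0682, 0.0536 and 0.0859. *Snhg3* overlaps *Rcc1* and *Snora73a* on its own strand, so their reads were not separated with certainty. Of the 184 genes, 64 overlap an annotated gene on either strand, 20 of them on the same strand, and whether the counting used strand is not stated.

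Ribosomal proteins form the small and large subunits of the ribosome, and their mRNAs carry a tract of pyrimidines at the start, the 5′ terminal oligopyrimidine motif. Of 87 cytosolic ribosomal protein genes tested, 20 were called lower and 0 higher, against 0.799% and 0.964% of all genes tested. Of these 20, 12 were called in neither depletion alone, as were 59.55% of all pooled calls. Only 8 were called in Zzz3_auxin and 4 in Yeats2_auxin. The median log2 FC over the 87 was -0.44 against 0.01 over all genes tested, and 14 of them had a positive value. Their summed level overlapped between the groups, at 21390 and 25810 CPM in the controls and 15460 to 22560 CPM in the auxin libraries. *Rps15a*, a protein of the small subunit (ENSMUSG00000008683, GRCm38 chromosome 7, 118104372 to 118116188, minus strand), had 720 and 707 CPM in the controls and 221, 376 and 425 CPM in the auxin libraries, which gave a log2 FC of -1.0 ± 0.18 (SE, adjusted P by edgeR 0.0253). In Zzz3_auxin and Yeats2_auxin its log2 FC was -1.05 (adjusted P 0.0505) and -0.95 (0.0916).

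*Rpl32*, of the large subunit (ENSMUSG00000057841, chromosome 6, 115805505 to 115808747, minus strand), had 649 and 714 CPM in the controls and 278, 382 and 466 CPM in the auxin libraries, which gave a log2 FC of -0.86 ± 0.15 (SE, adjusted P by edgeR 0.0206). *Rpl35a* had 325 and 357 CPM in the controls and 111, 189 and 220 CPM in the auxin libraries, which gave a log2 FC of -0.96 ± 0.19 (SE, adjusted P by edgeR 0.0361). *Rpl9* and *Rpl36a* had log2 FCs of -0.93 and -0.95. The other members called in neither depletion alone were *Rps20*, *Rpl36al*, *Rpl5*, *Rps7*, *Rpl17*, *Rpl7l1* and *Rpl23*. All auxin libraries were below both controls in each of the 20, as in every gene called lower, and Zzz3_auxin replicate 1 was the lowest in 19. Without that library 19 ribosomal protein genes were called, and after the GC and length correction 16. Ribosomal protein genes have many processed pseudogene copies, and reads shared between near-identical copies were dropped in the counting, so these levels are uncertain.

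For a view of their starts, the 20 bases before and the first 10 bases of the transcript, as RefSeq gives them for GRCm38.p6, are printed for 6 of the 20 genes, with the longest run of C and T in each window in capitals. These genes were chosen to show windows with such a run among genes missed in each depletion (*Rps15a*, *Rpl35a* and *Rpl5*), windows with one among genes also called in a depletion alone (*Rpl15* and *Rpl22l1*), and 1 missed gene without one (*Rpl9*).
Rps15a (chr7:118116138-118116167, minus strand): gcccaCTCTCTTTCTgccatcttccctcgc
Rpl35a (chr16:33056462-33056491, plus strand): gcgcggcggggcttgCCTTCCTCTTTCCgc
Rpl5 (chr5:107900508-107900537, plus strand): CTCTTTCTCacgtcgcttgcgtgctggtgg
Rpl15 (chr14:18270977-18271006, minus strand): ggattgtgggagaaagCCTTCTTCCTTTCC
Rpl22l1 (chr3:28805488-28805517, plus strand): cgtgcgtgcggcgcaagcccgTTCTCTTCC
Rpl9 (chr5:65391422-65391451, minus strand): gcgacacgcagggCCCTgacggattacaag
A run of at least 8 such bases stood in the window of at least 1 listed start for 9 of the 16 called ribosomal protein genes with a start in the table, for 20 of 50 that were not called (40%), and for 15.5% of 11380 tested genes with a start. Among the called ribosomal protein genes it stood in 3 of 9 that were missed in each depletion, which are the 3 printed, and in 6 of 7 others. *Rpl35a* has other listed starts whose windows hold no such run. Among the 184 genes it stood in 15 of 72 higher and 10 of 64 lower ones with a start. The runs printed for *Rps15a* and *Rpl5* lie wholly before the listed start, outside the transcript. The match describes the letters in this window and not a site.

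Of 19 translation factors and other mRNAs of the same terminal motif, *Eef1g* and *Naca* fell and 0 rose, with a median log2 FC of -0.27. Neither gene was called in a depletion alone, and 0.799% of all genes tested were called lower. *Eef1g*, a subunit of elongation factor eEF1, had 195 and 217 CPM in the controls and 104, 128 and 166 CPM in the auxin libraries, which gave a log2 FC of -0.68 ± 0.14 (SE, adjusted P by edgeR 0.0433). *Naca*, of the nascent polypeptide-associated complex, had a log2 FC of -0.49 ± 0.11 (SE, adjusted P by edgeR 0.0443). Both were called after the GC and length correction. Of 22 ribosome biogenesis genes 0 were called by edgeR, with a median of 0.03.

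The transcription factor p53 activates genes of cell death, of arrest and repair, and of its own feedback. Of 11 p53 targets of cell death, 4 rose and 0 fell, all 11 had a positive log2 FC and the median was 0.66. Over all genes tested, 0.964% were called higher and 0.799% lower. *Pidd1*, which activates caspase-2 and other death signals, was called in each depletion alone, and *Perp*, *Aen* and *Eda2r* in neither. *Perp*, a membrane protein of desmosomes and apoptosis, had 13.5 and 14.0 CPM in the controls and 19.2, 22.3 and 28.0 CPM in the auxin libraries, which gave a log2 FC of 0.72 ± 0.16 (SE, adjusted P by edgeR 0.0470). *Aen*, an apoptosis-enhancing nuclease, had 86.6 and 108 CPM in the controls and 134, 148 and 174 CPM in the auxin libraries, which gave a log2 FC of 0.62 ± 0.14 (SE, adjusted P by edgeR 0.0445). *Eda2r*, a receptor of the tumour necrosis factor family, had 182 and 163 CPM in the controls and 213, 252 and 263 CPM in the auxin libraries, which gave a log2 FC of 0.51 ± 0.11 (SE, adjusted P by edgeR 0.0440). No auxin library reached down to a control in these 3, as in all pooled calls that rose. The groups did not overlap in 23.7% of all genes tested. After the GC and length correction *Perp* and *Eda2r* were called, with edgeR adjusted P values of 0.0356 and 0.00674, and *Aen* was not (0.0509), nor was *Pidd1* (0.102).

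Of 19 p53 targets of arrest, feedback and repair, 6 rose and 0 fell, against 0.964% and 0.799% of all genes tested. The list had a median log2 FC of 0.38. The 6 were *Mdm2*, *Btg2*, *Phlda3*, *Plk2*, *Sesn2* and *Ptpn14*. Each was already called in at least 1 depletion alone, so pooling added none. *Phlda3* was not called after the GC and length correction (edgeR adjusted P 0.102), and the other five were. *Cdkn1a*, the cyclin-dependent kinase inhibitor p21, had 78.2 and 53.2 CPM in the controls and 33.3 to 82.7 CPM in the auxin libraries, which gave a log2 FC of 0.08 ± 0.28 (SE, adjusted P by edgeR 0.905). The p53 targets were chosen with results of these libraries known, so their direction is no independent evidence. A half-site of the p53 motif, searched on both strands from 250 bases before to 50 bases after the start, was found for 11 of 72 missed higher genes with a start in the RefSeq table (15.3%), for 3 of 64 missed lower genes (4.69%) and for 8.2% of all 11380. It was found for 3 of 58 higher genes that were also called in a depletion alone (5.17%), so the higher genes as a whole had it in 14 of 130 (10.8%).

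**Figure D4:**
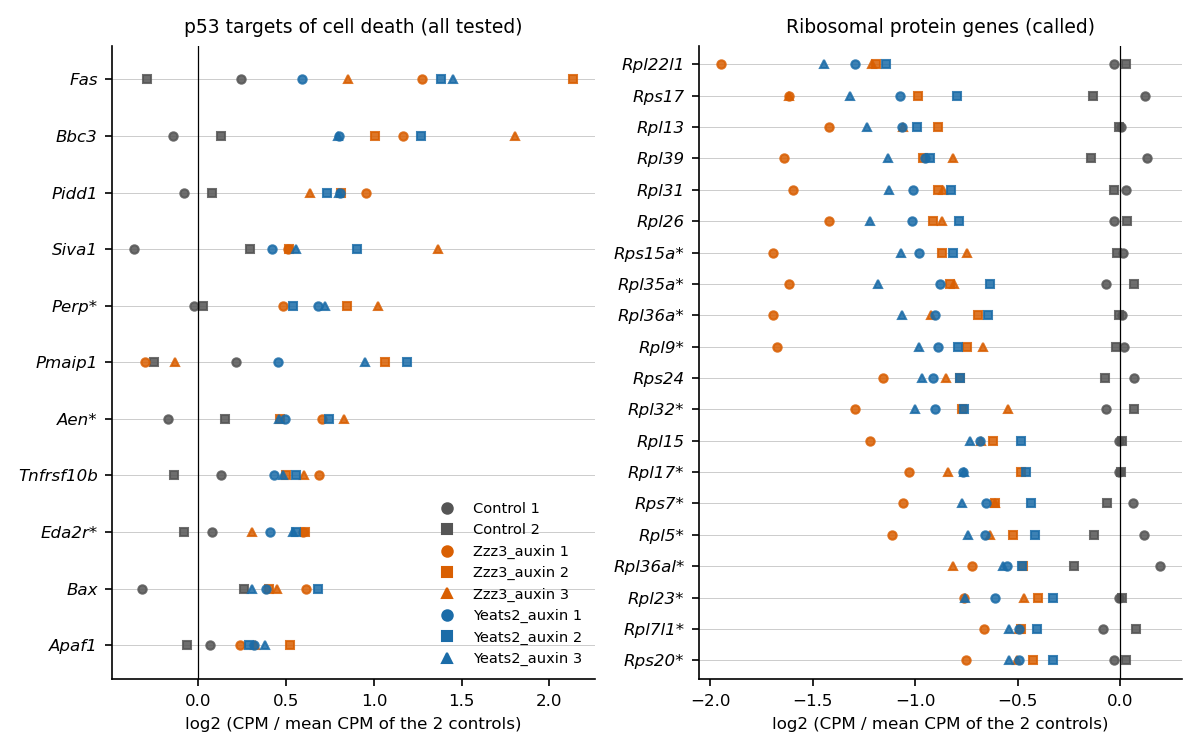
The left panel shows the 11 p53 targets of cell death and the right panel the 20 called ribosomal protein genes, 1 library per point, as log2 of CPM over the mean CPM of both controls. Asterisks mark genes called in the pooled comparison and in neither depletion alone. Zzz3_auxin replicate 1 is the lowest library for 19 of the 20 ribosomal protein genes.

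Single members of other lists were called with the libraries pooled and in neither depletion alone in the fit of all 8 libraries. So were 1.05% of all genes tested. *Nodal*, a ligand of the transforming growth factor β family, had 79.9 and 95.7 CPM in the controls and 116, 122 and 140 CPM in the auxin libraries, which gave a log2 FC of 0.51 ± 0.11 (SE, adjusted P by edgeR 0.0470). It was the only one of 11 Nodal and bone morphogenetic protein genes that was called, and the median of these was -0.16. *Cars*, a cysteinyl-tRNA synthetase, rose with *Sesn2* among 19 ATF4 targets, with a log2 FC of 0.52 ± 0.10 (SE, adjusted P by edgeR 0.0332) and a list median of 0.12.

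*Atxn7l3b*, a paralog of a subunit of the SAGA deubiquitinase module, had 195 and 178 CPM in the controls and 100, 132 and 138 CPM in the auxin libraries, which gave a log2 FC of -0.57 ± 0.12 (SE, adjusted P by edgeR 0.0436). Together with *Sf3b3* it made 2 lower and 0 higher among 21 SAGA genes, with a median log2 FC of -0.12. Over all genes tested, 0.799% were called lower. Of 11 ATAC subunit genes 0 were called by edgeR in the pooled comparison, with a median of 0.06. *Uqcrb* and *Ndufa4*, of respiratory complexes III and IV, had log2 FCs of -0.44 and -0.54 (edgeR adjusted P 0.0470 and 0.0308) among 77 nuclear respiratory genes with a median of -0.09. *Ctsl*, the lysosomal protease cathepsin L, was the only one of 21 lysosome genes called, with a log2 FC of -0.44 ± 0.08 (SE, adjusted P by edgeR 0.0301) and a list median of 0.06. *Nodal*, *Cars*, *Uqcrb*, *Ndufa4* and *Ctsl* were not called after the GC and length correction, and *Atxn7l3b* was.

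A few genes outside these lists and the rule for naming were picked after their values were seen. *Kntc1* and *Zwilch* encode 2 proteins of the Rod-Zwilch-Zw10 complex of the mitotic checkpoint. *Kntc1* had 225 and 218 CPM in the controls and 144, 158 and 175 CPM in the auxin libraries, which gave a log2 FC of -0.49 ± 0.09 (SE, adjusted P by edgeR 0.0314), and *Zwilch* a log2 FC of -0.54 ± 0.11 (SE, adjusted P by edgeR 0.0384). Their partner *Zw10* had a log2 FC of -0.15 ± 0.15 (SE, adjusted P by edgeR 0.593), and of 19 mitosis genes 0 were called by edgeR. *Wdhd1* and *Tipin*, of the replication fork, had log2 FCs of -0.47 and -0.44 (edgeR adjusted P 0.0240 and 0.0387). *Npat*, a coactivator of histone genes, had a log2 FC of -0.49 (edgeR adjusted P 0.0436). *Kntc1* and *Wdhd1* remained called after the GC and length correction, *Zwilch*, *Tipin* and *Npat* did not.

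*Tfrc*, the transferrin receptor that takes up iron, was the most abundant of these, with 2283 and 2066 CPM in the controls and 1494, 1520 and 1586 CPM in the auxin libraries, which gave a log2 FC of -0.51 ± 0.09 (SE, adjusted P by edgeR 0.0191). After the GC and length correction its log2 FC was -0.30 (edgeR adjusted P 0.0978). *Parp1*, the main poly(ADP-ribose) polymerase of the DNA damage response, had 508 and 668 CPM in the controls and 792, 859 and 931 CPM in the auxin libraries, which gave a log2 FC of 0.55 ± 0.12 (SE, adjusted P by edgeR 0.0474). *Uhrf1*, which guides maintenance DNA methylation, and *Tert*, the catalytic subunit of telomerase, had log2 FCs of 0.53 and 0.59 (edgeR adjusted P 0.0447 and 0.0433). *Parp1* was called after the GC and length correction (edgeR adjusted P 0.0498), and *Uhrf1* and *Tert* were not.

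A few long noncoding RNAs were also missed in each depletion. *Lncenc1*, a long noncoding RNA abundant in naive ESCs, had 492 and 405 CPM in the controls and 259, 289 and 318 CPM in the auxin libraries. Its log2 FC was -0.64 pooled (SE 0.11, edgeR adjusted P 0.0157), -0.61 in Zzz3_auxin (0.0505) and -0.66 in Yeats2_auxin (0.0513). *Gm10451* had a log2 FC of -0.54 ± 0.11 (SE, adjusted P by edgeR 0.0361). Both stayed called after the GC and length correction. In all, 161 of the 184 genes are annotated as protein coding, 12 as long noncoding or yet unclassified RNAs, 8 as pseudogenes and 3 as small nucleolar RNAs. Of the 17532 genes tested, 13634 are protein coding. The missed genes held 6 of 573 long intergenic RNAs, 3 of 428 antisense genes, 2 of 245 processed transcripts and 1 of 1005 unclassified genes. They held 7 of 802 processed pseudogenes and 3 of 139 small nucleolar RNAs, against 1.05% of all genes tested.

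A test against a fold of 1.2 called 0 of the 184 genes and 49 genes in all. Of the 184 genes, 38 were called in each of 5 alternatives, namely median-of-ratios scaling, a mean per depletion in the fit, the GC and length correction, DESeq2 and limma-voom with quality weights. This selection was made after the values were seen. It held 18 higher and 20 lower genes, and 100 of the 125 other pooled calls met the same condition. Besides *Plcd4*, *Rhox5*, *Azin2*, *Ddit4l*, *Dock3*, *Rpl32*, *Eef1g*, *Naca*, *Atxn7l3b*, *Kntc1*, *Wdhd1* and *Lncenc1* it included *Fbxw7*, *Sap30bp*, *Klhl42*, *Ak1*, *Sord* and *Txn1*. *Fbxw7*, the substrate receptor of a ubiquitin ligase that acts on cyclin E and MYC, had 90.8 and 80.2 CPM in the controls and 106, 134 and 149 CPM in the auxin libraries, which gave a log2 FC of 0.61 ± 0.14 (SE, adjusted P by edgeR 0.0469). *Sap30bp*, a transcriptional regulator, had 81.0 and 102 CPM in the controls and 133, 138 and 156 CPM in the auxin libraries, which gave a log2 FC of 0.63 ± 0.11 (SE, adjusted P by edgeR 0.0245). *Txn1*, the cytosolic thioredoxin, had 653 and 702 CPM in the controls and 434, 462 and 521 CPM in the auxin libraries, which gave a log2 FC of -0.52 ± 0.10 (SE, adjusted P by edgeR 0.0277).

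Pooling also lost calls. Of 153 genes called in at least 1 depletion alone, 28 were not called in the pooled comparison, 22 called in Zzz3_auxin and 6 in Yeats2_auxin. Their pooled edgeR adjusted P ran from 0.0501 to 0.533, and 27 had an unadjusted P under 0.05. Of the 28, 21 had an unadjusted P under 0.05 in Yeats2_auxin against Zzz3_auxin, though none passed after adjustment. *Zzz3* itself had the highest pooled adjusted P, with a log2 FC of -0.38 pooled, -0.95 in Zzz3_auxin and 0.03 in Yeats2_auxin. *Notch1*, a receptor of cell-to-cell signalling picked after its values were seen, had log2 FCs of 0.92 pooled (edgeR adjusted P 0.105), 1.18 in Zzz3_auxin and 0.61 in Yeats2_auxin.

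The remaining lists had 0 members called by edgeR, except the hypoxia and glycolysis genes, where *Bnip3* was lower (1 of 22, median -0.20) and was not called after the GC and length correction (edgeR adjusted P 0.103). Their medians were -0.04 for 22 pluripotency genes, -0.05 for 22 cholesterol synthesis genes, 0.03 for 10 Wnt targets, 0.13 for 11 ERK-responsive genes and 0.23 for 7 targets of the aryl hydrocarbon receptor, which binds indole compounds. For 12 actin and SRF targets the median was 0.38, with 11 positive values, and 0.23 after the GC and length correction. The controls of this list were at -0.17 and 0.17 and the auxin libraries between 0.23 and 0.52. For 17 mitochondrially encoded genes the median was -0.54, with the controls themselves at 0.24 and -0.24 and the auxin libraries between -1.08 and -0.28. For 58 replication-dependent histone genes it was 0.65, with the controls at -0.57 and 0.57. Zzz3_auxin replicate 3 carried the histone value, at 1.96 against -0.10 to 0.74 in the other auxin libraries, and without it the median log2 FC was 0.17.

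Markers of other cell states moved in part with the groups. The summed level of 11 primitive endoderm markers was 265 to 347 CPM in the controls and 359 to 403 CPM in the auxin libraries, and that of 10 primed-state genes 204 to 223 and 233 to 285 CPM. The basement membrane genes *Lama1* and *Lamb1* made up most of the first sum. They had 220 and 288 CPM and 39.9 and 52.7 CPM in the controls, with log2 FCs of 0.29 and 0.59. *Pdgfra* had a log2 FC of 0.54. *Gata4*, *Gata6* and *Dab2* had log2 FCs of -0.39, -0.26 and -0.19, and the list had a median of 0.05. *Dnmt3b*, a DNA methyltransferase gene, made up most of the second sum. It had 127 and 146 CPM in the controls and 147 to 207 CPM in the auxin libraries. Of 9 tested primed-state genes 7 had a positive log2 FC, with a median of 0.10 over the 9. *Otx2* and *Pou3f1*, the others, had log2 FCs of -0.35 and -0.50. No member of either list was called by edgeR. For 9 trophoblast markers the summed level was 41.9 to 46.5 and 46.8 to 51.3 CPM. *Tfap2c* made up most of it, with 27.6 and 28.9 CPM in the controls, 28.55 to 32.7 CPM in the auxin libraries and a log2 FC of 0.11. Of 7 tested members 5 had a positive log2 FC. *Cdx2* and *Gata3* had log2 FCs of -0.05 and -0.41, and 0 members were called by edgeR. Of 14 genes of the 2-cell-like state the summed level was 585 to 640 CPM in the controls and 448 to 528 CPM in the auxin libraries. Nearly all of this was *Eif1a*, a translation initiation factor gene, with 636 and 582 CPM in the controls and 441 to 521 CPM in the auxin libraries. All other tested members, of the *Zscan4* and *Usp17l* families and *Zfp352*, had positive log2 FCs and low levels, and none was called by edgeR. The median log2 FC of the 9 tested was 1.35, with 2.79 in Zzz3_auxin replicate 1 and 0.40 to 1.2 in the other auxin libraries. Summed neuroectoderm, mesendoderm and fibroblast markers overlapped between the groups, at 74.4 to 124, 12.5 to 23.2 and 7.20 to 12.8 CPM over all libraries. All members of these 7 lists but 1 fibroblast marker had reads. In bulk RNA, more cells of a state and more RNA per cell cannot be told apart, and the part of these states in the results above was not tested.

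**Figure D5:**
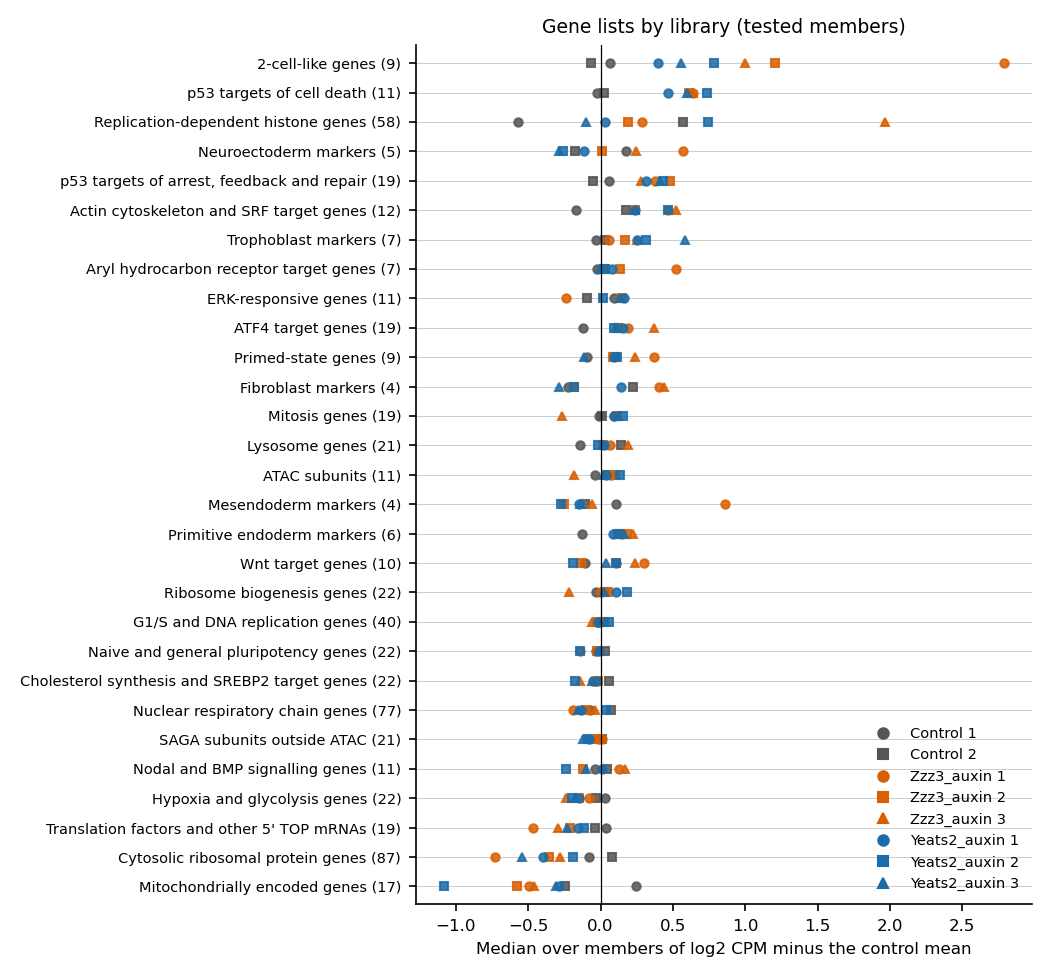
Each row is a gene list with its number of tested members, and each point the median over them, in 1 library, of log2 CPM minus the mean of the controls. The p53 targets of cell death lie between 0.47 and 0.73 in the 6 auxin libraries and the ribosomal protein genes between -0.73 and -0.19. Other lists on one side of 0 in all 6 include 2-cell-like genes (0.40 to 2.79) and mitochondrially encoded genes (-1.08 to -0.28). They also include p53 targets of arrest (0.28 to 0.48), actin and SRF targets (0.23 to 0.52) and translation factors (-0.46 to -0.12).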

How the data were processed

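The authors deposited raw counts per gene, 1 table per library, from total RNA of 8 ESC libraries. According to the study's methods and the submitters' processing notes, reads were trimmed, freed of ribosomal RNA, aligned to mm10 with STAR 2.5.3a and counted with HTSeq 0.6.1p1 in union mode. The labels name poly(A) RNA while the protocol describes ribosomal RNA depletion. The strand option is not given in the sources used here. Tallies of unassigned reads were dropped, and of 55401 genes, 55141 matched the GENCODE annotation of GRCm38 by identifier.

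The count test was that of edgeR 4.0.16 under R 4.3.3 (filterByExpr, TMM scaling, robust quasi-likelihood test), first with the 6 auxin libraries as 1 group against 2 controls, then with a mean per group for the single and direct comparisons. Two-sided P values were corrected over all 17532 genes (Benjamini-Hochberg). The SE is the log2 FC divided by the square root of F, and levels are TMM-scaled CPM. Log2 CPM used a prior count of 2. Named genes were the 12 largest rises and falls among DEGs, and among pooled calls missed in both single comparisons, provided they had a symbol, a mean level of 2 CPM or more, groups that did not overlap and no pseudogene annotation, besides *Zzz3*, *Yeats2* and called members of 29 lists. The libraries, lists and rules were chosen with earlier results of these data known. Not every such gene is named. Alternatives were DESeq2 1.42.0, limma-voom 3.58.1 with quality weights, other scaling, filters and designs, a lowess correction (span 0.3) on GC content and length, a glmTreat test at a fold of 1.2, and fits without each library in turn. The pipeline was tested on simulated data. Summaries were made in Python 3.11.15. At these depths counting error matters mainly for genes of low level, and precision is limited by the 2 controls. The result of 1 list is not reported here.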

Additional observations from a re-analysis of the deposited data

Results flagged for a closer look

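Among 106 named genes and list medians, 14 had 1 of the 6 auxin libraries far from the other five (a gap over 0.625 of the whole range on the log2 scale), and chance gives about 1 in 20. Zzz3_auxin replicate 1 stood apart for *Fcgrt* (4.53 CPM), *Ccdc9b* (6.1 CPM), *Rps15a* (221 CPM), *Rpl15* (82.8 CPM) and *Rpl9* (21.1 CPM), and for the medians, in log2 CPM relative to the control mean, of 2-cell-like genes (2.79), mesendoderm markers (0.863), aryl hydrocarbon receptor targets (0.521) and ERK-responsive genes (-0.241). Zzz3_auxin replicate 3 stood apart for the medians of ATAC subunits (-0.187), mitosis genes (-0.269) and ATF4 targets (0.37). Yeats2_auxin replicate 3 stood apart for *Gm2000* (4 CPM) and Yeats2_auxin replicate 2 for mitochondrially encoded genes (-1.08). The median of 5 neuroectoderm markers was above the control mean in every Zzz3_auxin library and below it in every Yeats2_auxin library, with middle values of 0.242 and -0.261 and the controls at 0.178 and -0.178, and this difference was not tested.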

How the results depend on the processing

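Those of the 184 missed genes that were tested kept their sign in every setting, while the numbers of calls changed. The genes tested were 172 with a mean CPM of at least 1, 161 among protein-coding genes and 184 in the others. Without the GC and length correction the sign was largely fixed, as their auxin libraries all lay on one side of both controls. Median-of-ratios scaling (292 pooled calls), a mean CPM of at least 1 (295) and protein-coding genes alone (270) gave numbers within 1.5 times of those reported. Without a filter on low counts there were 595 pooled calls, 173 DEGs, 6 genes missed in both depletions, 1542 calls in Zzz3_auxin, 553 in Yeats2_auxin and 117 between them. DESeq2 gave 1134, 193, 321, 1105 and 417 for the first 5 of these, and a test against a fold of 1.2 gave 49, 38, 29, 21 and 14. Limma-voom gave 611 pooled calls and 388 in Yeats2_auxin. The mean of both depletions from a fit with 3 groups left 80 missed genes. The GC and length correction left 76 and gave 130 calls in Yeats2_auxin. Single comparisons fitted with only their own libraries gave 0 calls in Zzz3_auxin and 501 in Yeats2_auxin, and 45 missed genes. The cause of these shifts was not tested.

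Same-numbered libraries did not deviate together, so the replicate numbers were not taken as pairs. With a replicate block there were 79 pooled calls, 45 DEGs, 40 missed genes, 42 calls in Zzz3_auxin and 32 in Yeats2_auxin, and with the block and the GC and length correction 79, 29, 20 and 63 for the first 4. Of the 184 genes, 18 were called with the block and the correction, 9 with the block alone and 0 against a fold of 1.2, so most missed genes counted under the last of these, and under the block alone, are other genes. Leaving out each library in turn gave 0 to 692 pooled calls, 0 to 151 DEGs, 0 to 388 missed genes, 0 to 779 calls in Zzz3_auxin, 0 to 230 in Yeats2_auxin and 0 to 1 between them. The lowest pooled count came without Control replicate 1 and the highest without Zzz3_auxin replicate 3. With 2 controls, which may differ in GC trend as the values above show, the number of calls is poorly determined.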
